A study of Mus musculus with 9 samples.

Results

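A set of 10 genes that mark the ends of the liver lobule was followed in mice that lack miR-122, 6 of them pericentral (Glul, Oat, Rhbg, Axin2, Lect2 and Cyp2e1) and 4 periportal (Gls2, Hal, Sds and Cyp2f2). They were taken by gene symbol from a table of 30519 transcripts that lists 1 transcript per gene, and all 10 were found. The tested livers came from 4 miR-122 knockout mice (KO), replicate 1 female and replicates 2, 3 and 4 male. Their controls were 5 floxed littermates (WT), replicates 1, 2 and 3 female and replicates 4 and 5 male. All mice were 6 weeks old, and polyA RNA of frozen, powdered liver that had not been crosslinked was sequenced, 1 library per animal. No source used here names the Cre line that deleted the floxed gene or the strain of the mice. The genotypes are as labelled, since miR-122 itself was not analysed here.

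Blood enters the lobule at the portal tract and leaves at the central vein, and hepatocytes along this path divide their work. Cells near the portal tract break down amino acids and make urea, while a thin layer around the central vein captures the ammonia that is left and turns it into glutamine. Wnt ligands and R-spondin from the endothelium of the central vein act through beta-catenin in neighbouring hepatocytes and set much of the pericentral programme. In bulk liver RNA, fewer cells of one zone and less RNA per cell of that zone cannot be told apart.

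Values are normalised abundances, scaled for transcript length, so that levels of different genes can be set side by side. Depth recovered from the table was 15.5 to 22.2 M reads (M, mega) per KO library and 11.9 to 19.7 M per WT library. Summed over transcripts, the deposited values gave 0.711 to 0.869 M per KO library and 0.873 to 1.17 M per WT library, so the scale between libraries matters for small differences. The column of WT replicate 3 is named male against a female label, and its Ddx3y and Uty values of 0.0422 and 0 lay with those of the female libraries. The hepatocyte gene for albumin (Alb) was high in every library, at 45680 ± 7139 in KO and 62240 ± 23930 in WT (SD, n = 4 and 5). A filter on the mean abundance (1 or more) left 10950 transcripts, of which limma called 35.9% at a Benjamini-Hochberg threshold of 0.05, with 21.4% higher in KO and 14.5% lower. All 10 members passed it. With every library scaled to the same total, the median log2 difference of all transcripts moved to 0.37, against 0.03 on the deposited scale, and 94.4% of the calls were higher in KO, against 59.6%. With median-ratio scaling 46.8% were higher.

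The promoters below are those listed for periportal genes that were lower in KO (Hal and Cyp2f2) and for the pericentral members whose window holds a TCF/LEF word, the class of site through which beta-catenin acts (Cyp2e1 and Lect2). Each runs 5′ to 3′ on the gene's own strand, from 250 bases before to 50 after the RefSeq start (RefSeq, GRCm38.p6), with matches in capitals. The Hal window belongs to the gene's RefSeq start, upstream of the start of the transcript measured here (93501125).
Hal, chr10:93488518-93488817, plus strand: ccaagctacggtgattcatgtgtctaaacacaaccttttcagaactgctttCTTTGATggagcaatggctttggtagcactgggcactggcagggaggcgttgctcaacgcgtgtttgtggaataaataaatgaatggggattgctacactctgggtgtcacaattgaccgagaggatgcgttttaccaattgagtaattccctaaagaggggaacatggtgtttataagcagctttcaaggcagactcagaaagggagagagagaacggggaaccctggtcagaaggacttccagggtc
Cyp2f2, chr7:27119705-27120004, plus strand: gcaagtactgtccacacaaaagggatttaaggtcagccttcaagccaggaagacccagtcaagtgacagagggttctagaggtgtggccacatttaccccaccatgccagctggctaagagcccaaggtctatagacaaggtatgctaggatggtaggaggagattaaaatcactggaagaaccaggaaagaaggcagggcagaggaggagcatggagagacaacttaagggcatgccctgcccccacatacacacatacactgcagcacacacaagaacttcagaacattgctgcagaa
Cyp2e1, chr7:140763569-140763868, plus strand: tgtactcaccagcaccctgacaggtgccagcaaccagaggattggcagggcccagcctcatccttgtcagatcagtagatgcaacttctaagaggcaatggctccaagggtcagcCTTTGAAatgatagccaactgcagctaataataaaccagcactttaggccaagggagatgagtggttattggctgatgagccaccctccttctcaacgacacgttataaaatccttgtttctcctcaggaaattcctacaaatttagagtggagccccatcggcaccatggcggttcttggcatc
Lect2, chr13:56548489-56548788, minus strand: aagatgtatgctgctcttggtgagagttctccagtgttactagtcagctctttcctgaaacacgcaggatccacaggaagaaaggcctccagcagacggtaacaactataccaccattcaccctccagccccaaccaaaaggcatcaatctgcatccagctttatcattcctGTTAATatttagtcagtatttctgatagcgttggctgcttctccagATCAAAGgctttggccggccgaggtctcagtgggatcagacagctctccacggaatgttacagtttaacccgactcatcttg
The words searched on both strands were CTTTGAT and CTTTGAA for TCF/LEF, GTTAAT as an HNF1 half-site and CAAAGTC as an HNF4 core, which can overlap the TCF/LEF words on the other strand. Of the 7 members with a listed promoter (Glul, Oat, Axin2, Lect2, Cyp2e1, Hal and Cyp2f2), 3 held a TCF/LEF word, at -32 from the start in Lect2, at -135 in Cyp2e1 and at -199 in Hal. Among all 32851 listed promoters 8.65% hold one. Lect2 also held an HNF1 half-site, at -78 (7.10% of all promoters), and none of the 7 held the HNF4 core (4.44%). A match is only a description of these letters, and a window with no match says nothing about the factor.

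The word complementary to the miR-122 seed was searched in the 3′ UTR of the listed transcript of each member. Other isoforms of these genes were not searched. The 6-base word CACTCC was absent from all 9 UTRs that could be searched, which ran from 154 bases in Sds to 1541 bases in Glul (GENCODE M21, GRCm38). The word was present in 25.2% of 9834 tested transcripts with a UTR of at least 50 bases. Hal was not searched, since its listed transcript has no coding sequence.

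Periportal markers were lower in KO livers. Of the 4, Gls2, Hal and Cyp2f2 were called lower and none higher, where 14.5% of all tested transcripts were called lower. The median log2 difference of the 4 was -1.24, against 0.03 over all tested transcripts. Only Gls2 and Hal had no overlap between the genotypes, in a table where the ranges did not overlap, with KO lower, for 12.1% of transcripts. All 4 lay among the lowest 3.42% of tested transcripts by log2 difference.

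Gls2 encodes the liver form of glutaminase, which releases ammonia from glutamine for the urea cycle in periportal mitochondria (ENSMUST00000044776, chr10:128194457-128209939, plus strand, 18 exons). It stood at 14.3, 24.6, 20.0 and 17.2 in KO replicates 1 to 4, against 44.8, 77.6, 47.6, 42.2 and 45.8 in WT replicates 1 to 5. Every KO liver lay below every WT liver. Gls2 was 2.71-fold lower by its means, with a log2 difference of -1.38 (SE 0.20, limma adjusted p = 6.92e-04). Equal totals left it at -0.998 (limma adjusted p = 0.0054), males alone at an adjusted p of 0.0101 (limma), and no library left out changed the call. Per the authors' deposited table its q was 9.98e-09.

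Hal encodes histidine ammonia-lyase, the first step of histidine breakdown. Its listed transcript (ENSMUST00000152883, Hal-204, chr10:93501125-93516666, plus strand) is an 851-base processed transcript of 5 exons without coding sequence. Of its 31-base words, 93.7% also occur in other Hal transcripts, so its value depends on how reads were divided among isoforms. The same limit holds for Sds (97.5%), Gls2 (92.9%), Axin2 (89.8%), Lect2 (84.8%) and Cyp2e1 (84.2%), and less for Cyp2f2 (47.4%). Hal stood at 14.4, 14.3, 7.12 and 25.6 in KO replicates 1 to 4, against 41.1, 70.9, 53.4, 47.4 and 59.6 in WT replicates 1 to 5. The genotypes did not overlap, although KO replicates 3 and 4 lay far apart. Hal was 3.55-fold lower, the largest difference among the members (log2 difference -1.86, SE 0.30, limma adjusted p = 0.00119). With equal totals it was -1.48 (limma adjusted p = 0.00113).

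Cyp2f2, a cytochrome P450 of periportal hepatocytes that is known from mouse lung for naphthalene metabolism, was called with some overlap (ENSMUST00000003100, chr7:27119909-27133660, plus strand). It stood at 160.3, 185, 216 and 297 in KO replicates 1 to 4, against 279.7, 339, 322, 437 and 478 in WT replicates 1 to 5. KO replicate 4 lay above WT replicate 1, and the WT males were the highest of all. It was 1.73-fold lower (log2 difference -0.80, SE 0.21, limma adjusted p = 0.0142), and with equal totals the call was lost (limma adjusted p = 0.0512, log2 difference -0.40). Among males alone it was called (limma adjusted p = 0.0259).

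Sds encodes serine dehydratase, which turns serine into pyruvate and ammonia (ENSMUST00000066540, chr5:120476531-120483932, plus strand). It stood at 19.1, 62.0, 29.1 and 66.6 in KO replicates 1 to 4, against 70.8, 128, 122.5, 58.1 and 68.4 in WT replicates 1 to 5. KO replicates 2 and 4 lay within the range of the WT males, while KO replicates 1 and 3 lay below all WT livers. The means differed 2.03-fold, but the log2 difference of -1.10 (95% interval -1.98 to -0.22) missed the threshold (SE 0.39, limma adjusted p = 0.0531). With equal totals Gls2 and Hal alone were called lower (2.72% of all transcripts), and among males alone Gls2, Hal and Cyp2f2 (7.65%). Sds was called without KO replicate 2 (limma adjusted p = 0.0409), KO replicate 4 (0.0324) or WT replicate 4 (0.049), and with median-ratio scaling (0.0394). Among males alone the log2 difference was -0.35 (limma adjusted p = 0.527).

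**Figure D1:**
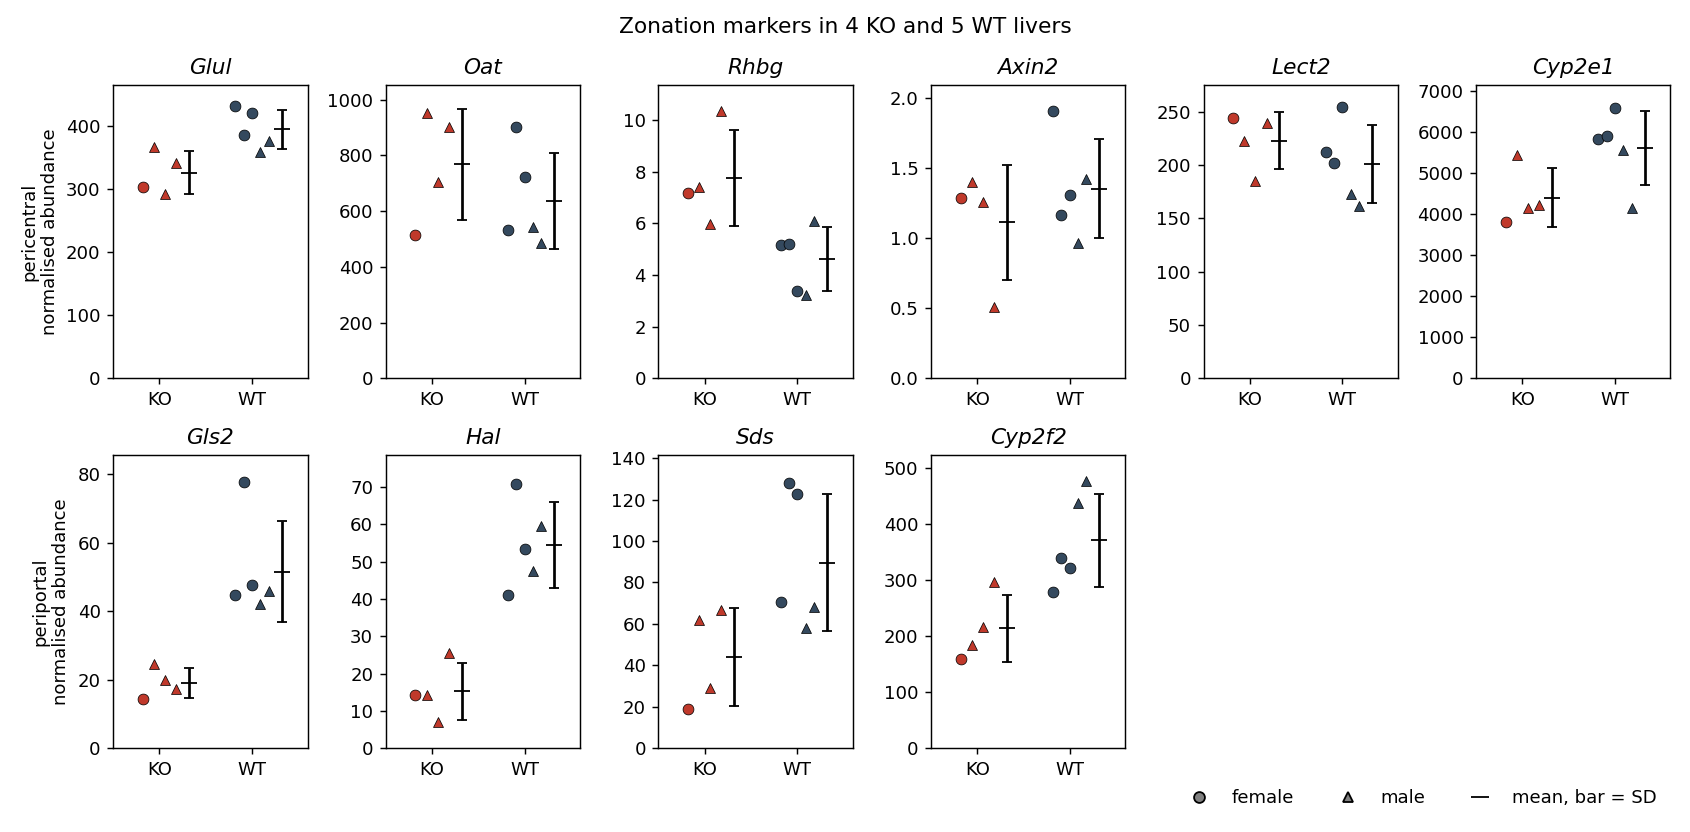
Normalised abundance of the 10 zonation markers in each liver, KO left and WT right, circles for females and triangles for males, with the mean and SD beside the points. Gls2 and Hal separate the genotypes completely, with at most 24.6 and 25.6 in KO and at least 42.2 and 41.1 in WT, while the pericentral panels of the upper row overlap.

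Pericentral markers did not move as a group. Of the 6, Rhbg was called higher and Glul lower, near the shares of all tested transcripts called in each direction (21.4% and 14.5%), and 4 were not called. Their log2 differences ran from -0.35 to 0.65 with a median of -0.0032, and each had overlapping genotypes. With equal totals the median was 0.34, the median of all transcripts 0.37, and no member lay below 0. On that scale Oat, Rhbg and Lect2 were called higher and none lower, against 45.4% higher and 2.72% lower over all transcripts.

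Glul encodes glutamine synthetase, the enzyme that fixes ammonia in the last layer of cells before the central vein (ENSMUST00000086199, chr1:153899944-153909723, plus strand). It stood at 304, 366, 292.5 and 341.5 in KO replicates 1 to 4, against 432, 386, 420.1, 358 and 377 in WT replicates 1 to 5. KO replicate 2 lay above WT replicate 4, and the means differed 1.21-fold. The log2 difference of -0.28 (SE 0.095, limma adjusted p = 0.0456) was called narrowly. It did not hold when any library but KO replicate 2 or WT replicate 4 was left out (limma adjusted p from 0.0515 to 0.125), nor when sex entered the fit (0.0875), in males alone (0.482) and in the authors' deposited table (q = 0.112). With equal totals the sign turned, to 0.12 (limma adjusted p = 0.478). Of the 31-base words of Glul, 23.4% occur in transcripts of other genes, most in the pseudogene Glns-ps1, which was listed at no more than 0.148 in KO and 0.241 in WT.

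Rhbg, an ammonia transporter of the pericentral hepatocyte membrane, was the only member called higher (ENSMUST00000171887, chr3:88242874-88254709, minus strand). It stood at 7.19, 7.42, 5.99 and 10.4 in KO replicates 1 to 4, against 5.15, 5.19, 3.39, 3.25 and 6.09 in WT replicates 1 to 5. KO replicate 3 lay just below WT replicate 5, and the other KO livers lay above all WT livers. It was 1.68-fold higher (log2 difference 0.65, SE 0.19, limma adjusted p = 0.0246), also with equal totals (0.99, limma adjusted p = 0.00156). The call was lost without KO replicate 2 (limma adjusted p = 0.0514), KO replicate 4 (0.0667) or WT replicate 3 (0.0544). It was also lost among males alone (limma adjusted p = 0.151), where the log2 difference was 0.67 with a wider SE of 0.29. Its value is uncertain, since 60.8% of its 31-base words also occur in Gm38392, an overlapping annotation listed at 1.61 to 5.84 in KO and 1.31 to 3.24 in WT.

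Oat encodes ornithine aminotransferase, which feeds ornithine carbon toward glutamate beside glutamine synthetase (ENSMUST00000084500, chr7:132557478-132576398, minus strand). It stood at 516, 954, 703 and 901 in KO replicates 1 to 4, against 533, 901, 722, 544 and 485 in WT replicates 1 to 5. The genotypes overlapped widely, and the KO female lay below 4 of the 5 WT livers. The log2 difference was 0.27 (95% interval -0.25 to 0.78, limma adjusted p = 0.393). It was called higher with equal totals (0.67, limma adjusted p = 0.0402) and among males alone (0.72, limma adjusted p = 0.0355), where 13.5% of all transcripts were called higher.

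Cyp2e1, the ethanol-oxidising cytochrome P450, was the most abundant member (ENSMUST00000026552, chr7:140763739-140774981, plus strand). It stood at 3796, 5434, 4140 and 4226 in KO replicates 1 to 4, against 5817, 5891, 6596, 5561 and 4143 in WT replicates 1 to 5. Only WT replicate 5 lay within the KO range. The log2 difference of -0.35 (95% interval -0.70 to 0.013) was not called (limma adjusted p = 0.121). It was called without WT replicate 5 (limma adjusted p = 0.03), and with equal totals it was 0.054 (limma adjusted p = 0.842).

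Lect2, a secreted hepatocyte protein and beta-catenin target, stood at 244, 222, 185 and 239 in KO replicates 1 to 4, against 212, 202, 255, 173 and 161.5 in WT replicates 1 to 5 (ENSMUST00000062806, chr13:56542464-56548502, minus strand). The genotypes overlapped, and the log2 difference of 0.16 (95% interval -0.16 to 0.48) was not called (limma adjusted p = 0.41), although with equal totals it was called higher (0.56, limma adjusted p = 0.0244). Axin2, a negative regulator of Wnt signalling that beta-catenin itself induces, was the least abundant member (ENSMUST00000052915, chr11:108920349-108950783, plus strand). It stood at 1.29, 1.40, 1.26 and 0.508 in KO replicates 1 to 4, against 1.91, 1.17, 1.31, 0.964 and 1.43 in WT replicates 1 to 5. It rested on as few as 41.1 reads in a library, that of KO replicate 4. Its log2 difference of -0.17 (95% interval -0.55 to 0.21) was not called (limma adjusted p = 0.472), and without KO replicate 4 it was -0.013. With equal totals its sign turned, to 0.055 (limma adjusted p = 0.837).

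**Figure D2:**
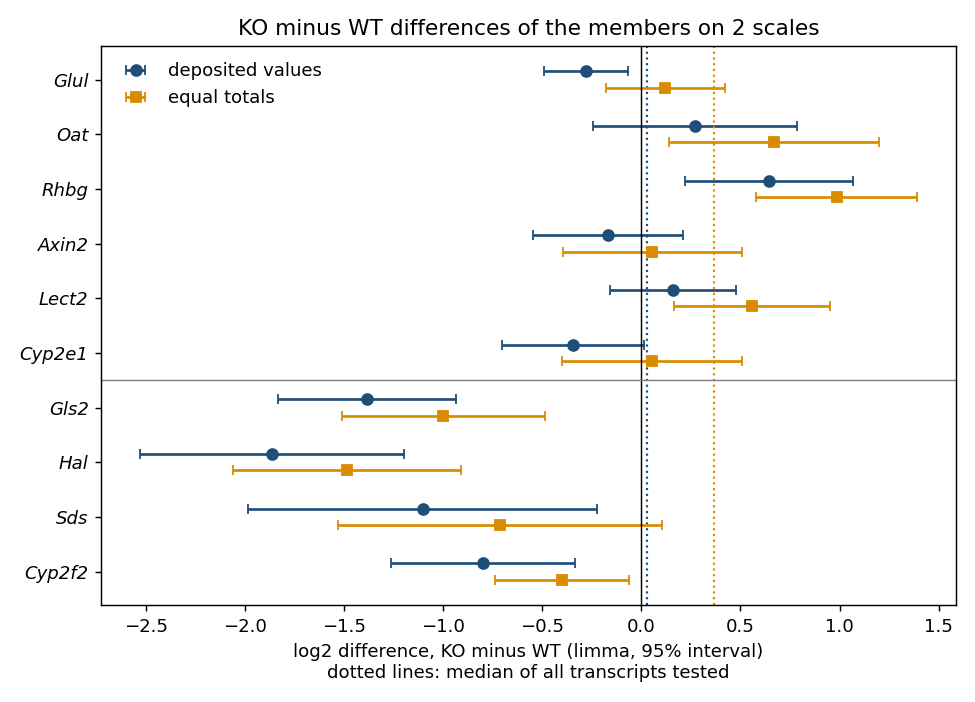
The log2 difference, KO minus WT, of each member with its 95% interval from limma, on the deposited values (circles) and with every library scaled to the same total (squares), with dotted lines at the median of all tested transcripts. The 4 periportal genes lie left of 0 on both scales, at -0.80 or below on deposited values, whereas the pericentral genes lie around the dotted line of each scale.

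Ratios between 2 members within a liver do not depend on the scale between libraries. Glul over Gls2, the enzymes that make and break glutamine, was 21.3, 14.9, 14.6 and 19.85 in KO replicates 1 to 4, against 9.63, 4.98, 8.82, 8.49 and 8.23 in WT replicates 1 to 5. Every KO ratio was above every WT ratio. Rhbg over Gls2 was 0.2995 to 0.603 in KO and 0.0669 to 0.133 in WT livers, and Oat over Hal was 35.2 to 98.8 in KO and 8.13 to 13.5 in WT livers, with no overlap. These ratios and Glul over Gls2 have Gls2 or Hal as denominator, the only members whose own ranges did not overlap. They are therefore not separate findings. Cyp2e1 over Cyp2f2, a pair of P450 genes from opposite ends of the lobule, overlapped, at 14.2 to 29.4 in KO and 8.67 to 20.8 in WT livers. Among pericentral genes Cyp2e1 over Glul overlapped (12.4 to 14.9 in KO, 11.0 to 15.7 in WT), while Rhbg over Glul did not (0.0203 to 0.0304 in KO, 0.00807 to 0.0162 in WT), nor did Lect2 over Glul (0.608 to 0.804 in KO, 0.429 to 0.606 in WT). The periportal ratio of Hal over Gls2 spread from 0.356 to 1.49 in KO and only from 0.914 to 1.30 in WT livers. These ratios are descriptions of members chosen with results known and carry no test.

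**Figure D3:**
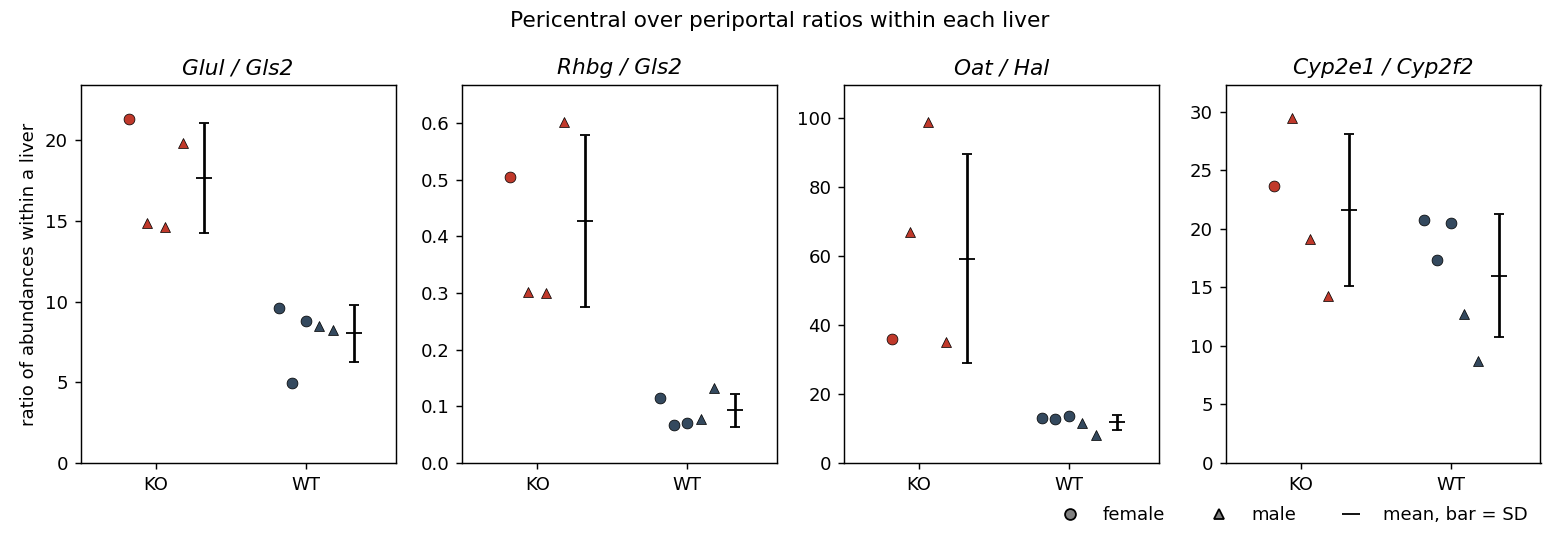
Ratios of a pericentral to a periportal marker within each liver, KO left and WT right, circles for females and triangles for males, with mean and SD. Glul over Gls2 is at least 14.6 in KO and at most 9.63 in WT livers, and only Cyp2e1 over Cyp2f2 overlaps.

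In order of WT level the members ran Cyp2e1 (5601 ± 901), Oat (637 ± 173), Glul (395 ± 30.6), Cyp2f2 (371 ± 83.1), Lect2 (200.5 ± 36.6), Sds (89.6 ± 33.0), Hal (54.5 ± 11.5), Gls2 (51.6 ± 14.7), Rhbg (4.61 ± 1.24) and Axin2 (1.36 ± 0.353, SD, n = 5). Glul and Cyp2f2, Sds and Hal, and Hal and Gls2 were neighbours whose WT ranges overlapped. The KO means of the pericentral members were 4399 ± 715 for Cyp2e1, 768 for Oat (516 to 954 over the livers), 326 ± 33.8 for Glul, 223 ± 26.7 for Lect2, 7.74 ± 1.86 for Rhbg and 1.11 ± 0.408 for Axin2 (SD, n = 4). Those of the periportal members were 214.5 ± 59.5 for Cyp2f2, 44.2 ± 23.6 for Sds, 19.0 ± 4.40 for Gls2 and 15.3 ± 7.64 for Hal. In KO livers Lect2 thus stood above Cyp2f2, the reverse of WT livers, although their KO ranges overlapped. The spread between animals was widest in KO livers for Sds (coefficient of variation 53.5%) and Hal (49.8%) and narrowest for Glul (10.4% in KO, 7.76% in WT). The order of animals was partly shared, with KO replicate 1, the only KO female, lowest for Gls2, Sds, Cyp2f2, Oat and Cyp2e1. WT replicate 2 was highest of its group for Gls2, Hal, Sds and Oat.

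Sex is unequal between the genotypes and could not be balanced within them. The KO female had 19.1 of Sds, against a mean of 107 in the 3 WT females, while the KO males averaged 52.5 against 63.2 in the WT males. For Oat the KO female had 516 against a mean of 719 in WT females, and the KO males averaged 853 against 515 in WT males. The genotype by sex interaction of these genes had an unadjusted p of 0.0106 and 0.0133 (limma), but no member was called after adjustment over all transcripts (limma adjusted p = 0.326 for Sds and 0.333 for Oat), and 0.119% of all transcripts were. Gls2 stood at 14.3 in the KO female against 56.7 in WT females, and at 20.6 in KO males against 44.0 in WT males. Hal stood at 14.4 in the KO female against 55.2 in WT females and at 15.7 in KO males against 53.5 in WT males, so both were lower in each sex. With 1 KO female, her values have no replicate. With sex as a covariate Gls2, Hal and Cyp2f2 were called lower (limma adjusted p = 0.00195, 0.00314 and 0.00125) and Rhbg higher (0.0461). Cyp2f2 then had a log2 difference of -0.98, against -0.80 without sex. Sds and Glul (limma adjusted p = 0.0769 and 0.0875) and the other members were not called, in a fit that called 3710 transcripts.

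Longer lists of zonal genes were read for the same 2 zones. Leaving out the members, 23 further periportal genes were tested, of which 8 were lower and 3 higher in KO, with a median log2 difference of -0.29. Among 25 further pericentral genes 5 were lower and 6 higher, with a median of 0.0069. These counts stand beside 14.5% lower and 21.4% higher over all transcripts. With the members included (27 periportal and 31 pericentral genes tested), equal totals gave 6 lower and 5 higher periportal genes (11 and 3 on the deposited scale). Of the pericentral genes 2 were lower and 13 higher (6 and 7). Over all transcripts equal totals gave 2.72% lower and 45.4% higher. Males alone gave 5 lower and 4 higher periportal genes and 2 lower and 6 higher pericentral genes, beside 7.65% lower and 13.5% higher over all transcripts. Leaving out KO replicate 4 brought the lower pericentral genes to 3.

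The further periportal genes that fell include 2 urea cycle enzymes. Ass1 and Cps1 of the same cycle, also in the list, were not called (limma adjusted p = 0.0869 and 0.249). Arg1, the arginase that releases urea, stood at 779, 888.5, 625 and 818 in KO replicates 1 to 4, against 1478, 1751, 2047, 1520.0 and 1183 in WT replicates 1 to 5 (log2 difference -1.02, limma adjusted p = 0.00127). Asl, which makes arginine in the urea cycle, was 2.76-fold lower (42.2 ± 17.7 in KO, 116 ± 43.2 in WT, limma adjusted p = 0.0046). Pigr, the receptor that carries IgA into bile, stood at 84.7 ± 16.05 in KO and 266.5 ± 96.7 in WT, and Uox, urate oxidase, at 450.1 ± 113.5 in KO and 822 ± 96.3 in WT. Among males alone Asl and Uox were not called (limma adjusted p = 0.0819 and 0.102). Against this direction, the adhesion protein gene Cdh1 was 5.502-fold higher (48.0 ± 5.38 in KO, 8.725 ± 4.30 in WT, limma adjusted p = 1.99e-04), and Apoa4 and the tyrosine aminotransferase gene Tat were also higher.

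Further pericentral genes moved both ways. Gstm3, a glutathione transferase whose reads may be shared with close paralogues, was 9.46-fold higher (449 ± 129 in KO, 47.5 ± 11.97 in WT, limma adjusted p = 8.15e-06). Cyp1a2, a P450 induced through the aryl hydrocarbon receptor, stood at 510.0 ± 86.1 in KO and 288 ± 32.0 in WT, and the receptor gene Ahr itself at 14.8 ± 1.71 in KO and 8.13 ± 1.275 in WT. Cldn2, a tight junction protein, was also higher (69.3 ± 5.44 in KO, 38.1 ± 6.19 in WT). On the lower side were Pon1, the paraoxonase (473 ± 87.6 in KO, 1218 ± 356.5 in WT), Cyp27a1, which hydroxylates the sterol side chain (87.5 ± 19.2 in KO, 161 ± 13.2 in WT), the bile acid and drug carrier Slco1b2 and regucalcin, Rgn. The last pair was not called with equal totals (limma adjusted p = 0.23 and 0.492).

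The genes of histidine breakdown were lower in KO at each step tested. Besides Hal, Uroc1, Amdhd1 and Ftcd, which carry the chain from urocanate to glutamate, were all called lower, so that 4 of 4 genes fell, with a median log2 difference of -0.92, where 14.5% of all transcripts were called lower. Amdhd1 stood at 38.0, 43.5, 38.5 and 47.2 in KO replicates 1 to 4, against 72.9, 97.8, 87.7, 89.7 and 76.0 in WT replicates 1 to 5 (limma adjusted p = 1.21e-04). Ftcd was at 49.1 to 62.2 in KO and 85.5 to 108 in WT livers (limma adjusted p = 1.63e-04), and Uroc1 at 37.3 to 47.2 in KO and 56.0 to 97.0 in WT livers (limma adjusted p = 0.00341). None of these 3 genes overlapped between the genotypes, which held with KO lower for 12.1% of all transcripts. Each is a gene of its own, apart from Hal, and its isoforms were not compared. Uroc1 lost its call with equal totals (limma adjusted p = 0.132) and among males alone (0.0601), leaving 3 of 4 genes in each (2.72% and 7.65% of all transcripts were lower there).

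Among genes of serine, threonine and glycine breakdown 6 of 12 tested were lower and none higher (median -0.43), beside 14.5% lower over all transcripts. Gldc, the decarboxylase of the glycine cleavage system, stood at 24.4, 15.8, 17.8 and 19.7 in KO replicates 1 to 4, against 40.0, 47.1, 46.2, 44.2 and 51.25 in WT replicates 1 to 5 (limma adjusted p = 8.22e-05). Its partners Dld and Gcsh and the serine hydroxymethyltransferase Shmt1 were lower too, while Amt of the same system was not called (limma adjusted p = 0.546). With equal totals 3 were lower and 1 higher (Amt, limma adjusted p = 0.0443), with a median of -0.046, and Gcsh was not called (0.169). Over all transcripts 2.72% were lower and 45.4% higher there. In the wider list of glutamine and ammonia handling 6 of 19 were lower and 2 higher (median -0.26), the higher ones being Rhbg and the neutral amino acid transporter Slc1a4. With equal totals the balance turned, to 4 lower and 5 higher with a median of 0.14. Leaving out the members, 4 of 15 were lower and 1 higher on the deposited scale. Arg1 and Asl, among the lower ones, are also in the periportal list. Otc, which makes citrulline in the urea cycle (213.5 ± 22.3 in KO, 350.5 ± 36.9 in WT), and the aspartate carrier Slc25a13 fell, while Cps1, which fixes ammonia at the entry of the cycle, was not called (698 ± 83.25 in KO, 790.3 ± 82.95 in WT, limma adjusted p = 0.249).

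**Figure D4:**
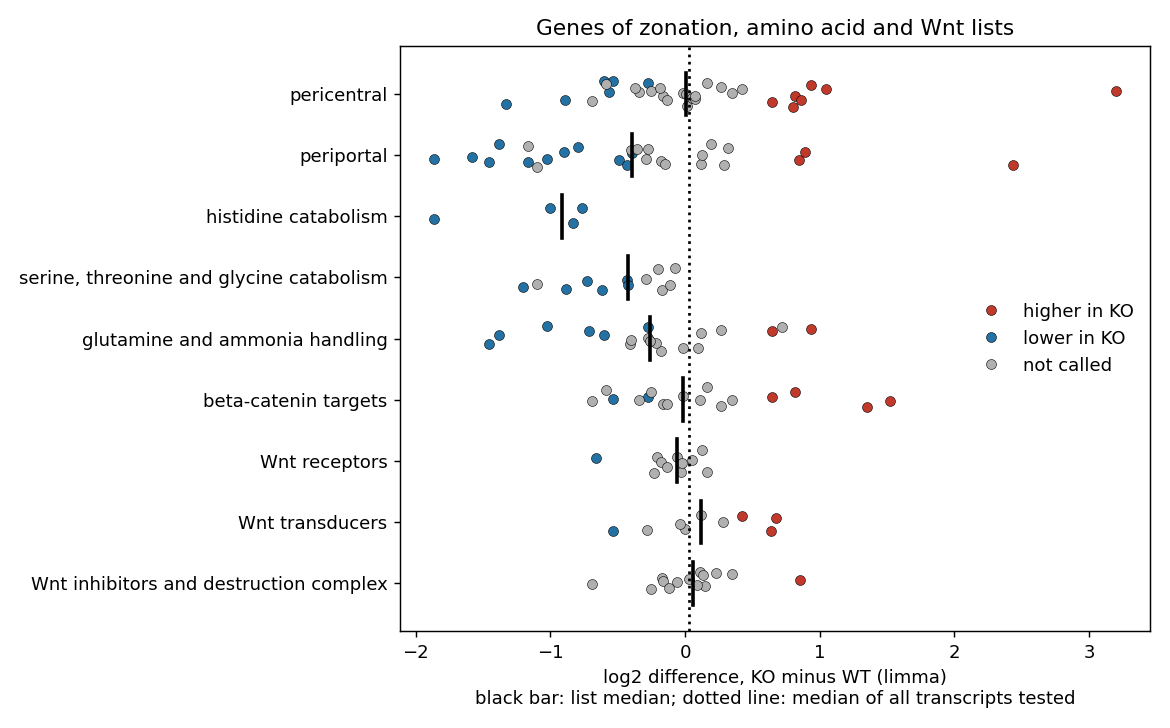
The log2 difference, KO minus WT, of each tested gene in 9 lists, red where called higher in KO, blue where called lower and grey where not called, with a black bar at the median of each list and a dotted line at the median of all transcripts. The 4 histidine genes are all blue, the periportal list is shifted left with a median of -0.39, and the pericentral list is centred near 0.

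The Wnt pathway that sustains the pericentral zone was read by the roles of its genes, beside the 21.4% higher and 14.5% lower over all transcripts. Of the ligand and secretion list only 2 of 12 passed the filter. Rspo3, the R-spondin of central vein endothelium, stood at 3.63, 3.23, 3.33 and 3.42 in KO replicates 1 to 4, against 3.95, 3.44, 4.79, 3.64 and 3.37 in WT replicates 1 to 5, and was not called (limma adjusted p = 0.33). Wls, the carrier that exports Wnt proteins, was higher (4.33 ± 0.355 in KO, 2.57 ± 0.295 in WT, limma adjusted p = 0.00102). Wnt2, the ligand of sinusoidal and central vein endothelium, lay below the filter, at 0.0994 to 1.65 in KO and 0.851 to 1.69 in WT livers, as did Wnt9b at 0.291 to 0.490 in KO and 0.238 to 0.323 in WT livers. Of 11 receptor genes 1 was lower (Fzd4, 0 with equal totals) and none higher. Of 9 transducers 3 were higher and 1 lower, and equal totals gave 4 higher and 0 lower (45.4% and 2.72% of all transcripts).

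Ctnnb1, which encodes beta-catenin, stood at 105.5, 95.2, 99.1 and 128 in KO replicates 1 to 4, against 72.7, 60.3, 81.0, 63.3 and 65.0 in WT replicates 1 to 5. The genotypes did not overlap (log2 difference 0.63, limma adjusted p = 0.00236), which held with KO higher for 19% of all tested transcripts. The coactivator genes Bcl9 and Bcl9l were also higher, and the transcription factor gene Tcf7 was lower (1.36 ± 0.262 in KO, 2.46 ± 0.656 in WT, limma adjusted p = 0.025). Of 14 inhibitors and destruction complex genes Dkk3 was higher and none was lower (21.4% and 14.5% of all transcripts). With equal totals 7 were higher, near the 45.4% of all transcripts. Of 17 beta-catenin targets tested, 11 of them beside the members, 4 were higher (Ccnd1, Myc, Cyp1a2 and Rhbg) and 2 lower (Tcf7 and Glul). Neither lower call was made with equal totals (7 higher, 0 lower) or among males alone (4 higher, 0 lower). Over all transcripts 45.4% were higher and 2.72% lower with equal totals, and 13.5% higher and 7.65% lower among males alone. Lgr5, a receptor and target in the cells nearest the central vein, stood at 1.32 ± 0.246 in KO and 1.56 ± 0.370 in WT (limma adjusted p = 0.445).

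Markers of hepatocytes and other liver cells were counted in the same way, beside 21.4% higher and 14.5% lower over all transcripts. Of 10 hepatocyte markers 1 was higher and 3 lower, with a summed level of 65360 to 84260 in KO and 55910 to 124100 in WT livers. With equal totals 3 were higher and 0 lower, beside 45.4% and 2.72% of all transcripts. All 6 Kupffer cell and macrophage markers were higher (summed level 145 to 180.1 in KO, 88.6 to 123 in WT), as were 5 of 6 stellate cell markers (212 to 268 in KO, 124 to 227 in WT). Of the cholangiocyte markers 3 of 4 tested were higher (13.9 to 16.9 in KO, 4.50 to 5.76 in WT), and of the blood cell markers 3 of 4 tested (203 to 322 in KO, 108 to 252 in WT). Of 9 endothelial markers tested 2 were higher and 1 lower (67.2 to 84.6 in KO, 65.0 to 89.5 in WT). Only the Kupffer cell and cholangiocyte sums did not overlap between the genotypes. Males alone gave 5 Kupffer cell, 5 stellate cell, 2 cholangiocyte, 1 endothelial and 1 hepatocyte marker higher. Of the blood cell markers 1 was higher and 1 lower there, beside 13.5% and 7.65% of all transcripts. Cdh1, in the periportal list, is also a gene of bile duct epithelium. Cftr, a defining cholangiocyte gene, was at 0.222 to 0.340 in KO livers and listed at 0 in 3 of 5 WT livers. The part of these cells in the differences of the members was not tested.

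The genes whose departures from the genotype means were most like those of Glul over the 9 libraries were Capn10 (Pearson r of residuals 0.896), Dpm3 (0.889) and Ip6k2 (0.881). For Gls2 they were Ciao1 (0.946), Cog4 (0.939) and Sssca1 (0.922). WT replicate 2, which stood apart for Gls2, was also the highest WT liver for Ciao1 (14.69), Cog4 (31.75) and Sssca1 (8.955). The likeness to Gls2 thus leans on that liver. None of the 6 was called between the genotypes (limma adjusted p from 0.263 to 0.841). They were picked as the highest values in the table and carry no test.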

How the data were processed

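Livers of 4 KO and 5 WT mice, grouped by labelled genotype, gave 1 polyA RNA-seq library each. The tools were kallisto and sleuth and the build mm10, per the submitters' processing notes. Their versions, the transcript set and any filters are not stated in what was used here. The authors deposited a normalised signal per transcript, scaled for length, whose sum differs between libraries. The deposited p-value and q-value are those of the authors' test. The deposited coefficient, its error and the mean were taken as natural logs, since their headers name neither a log base nor a direction. The coefficient was read as WT minus KO from its correlation with that difference (r = 0.928). It was turned here to KO minus WT in log2.

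Relative depth was recovered from that mean and from ratios of low values, and no count test was run on estimated abundances. Here limma 3.58.1 (R 4.3.3) was fitted to log2(value + 1) of 10950 transcripts with a mean of 1 or more. Genotype was the single factor, the prior variance followed a trend, and p-values were adjusted by Benjamini-Hochberg. These log2 differences understate the change of low genes, while folds are ratios of means. P-values measure the spread between animals, whose litters are not labelled.

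Members and lists were chosen with earlier results of these data known. For each list the text names at most 4 further genes per direction, by smallest adjusted p, every tested gene where under 5 were tested, and defining markers. Also named are the 3 genes most like Glul and Gls2. Amt, Ass1, Cps1 and Lgr5 were added after their values were seen. 1 list is not reported here. Words of 31 bases were compared with GENCODE M21 transcripts. Simulated data with known changes were used to test the fit. Alternatives covered the threshold, pseudocount, filter, scaling, variance trend, single libraries left out, blocking by replicate number, sex, males alone and the authors' test.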

Additional observations from a re-analysis of the deposited data

Results flagged for a closer look

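Among 20 sets of member values (10 genes in each genotype), 2 held a liver that stood apart from the rest by Dixon's test, of which chance gives about 1 in 20. Axin2 was at 0.508 in KO replicate 4, where the other KO livers lay at 1.26 to 1.40, and this library rested on the fewest Axin2 reads of all. Without KO replicate 4 the log2 difference was -0.013, against -0.17 with it, and neither was called. Gls2 was at 77.6 in WT replicate 2, where the other WT livers lay at 42.2 to 47.6, and the gene was called lower in KO without that liver as well.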

How the results depend on the processing

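Of the 4 periportal genes, 3 were called lower here, 2 with equal totals or a threshold of 0.01, 4 with median-ratio scaling or a threshold of 0.1, and 3 to 4 without a library. Gls2 and Hal were called under each alternative run. Over 219 combinations of a member and an alternative, 187 kept direction and side of the threshold, 20 lost the call, 9 gained one and 3 turned sign. The sign turned with equal totals for Glul (0.12), Axin2 (0.055) and Cyp2e1 (0.054). The count of pericentral genes lower in KO, 1 here, was 0 with no filter, equal totals, sex as a covariate, males alone, the authors' test or a threshold of 0.01, and 0 to 1 without a library. The count higher, 1 here, was 3 with equal totals, 0 at a threshold of 0.01, and 0 to 1 without a library. The 3934 transcripts called became 2589 at a minimum mean of 5, 2336 among males alone and 2362 at a threshold of 0.01, and 3114 to 4054 without a library. No periportal gene was called higher. The interaction could not be fitted without KO replicate 1, the only KO female. The cause of these changes was not tested.

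Samples with the same replicate number showed little likeness (correlation of same-numbered deviations -0.184 to 0.229). Litters are not labelled, so pairing by litter could not be checked. With a replicate block 3557 transcripts were called, no pericentral gene was lower (0), and Glul had -0.29 (limma adjusted p = 0.117). WT replicates 4 and 5 were the shallowest libraries, with 12.7 and 11.9 M reads. They were also the only WT males, so sex and depth cannot be told apart within WT livers. The comparisons among males alone and the interaction with sex share this limit.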
